A study of Mus musculus with 12 samples.

Results

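Inflammasome components are described here in cultured mouse eosinophils through the transcripts of 7 genes: the sensors Nlrp3, Nlrc4 and Aim2, the adaptor Pycard, the caspases Casp1 and Casp4, and the pore-forming effector Gsdmd. The genes were chosen by name, and each matched 1 row of the 54532 genes in the deposited count table. All 7 passed the expression filter, as did 14547 genes in all. The cells were splenic eosinophils, sorted by high side scatter and 4get fluorescence from IL-5tg_4get/C57BL/6 mice and kept in culture for 4 h. In these mice GFP reports expression of the interleukin-4 gene, and an interleukin-5 transgene drives eosinophilia. Every group thus came from animals with excess interleukin-5. The 4 groups of 3 libraries each received a rat IgG2a isotype control antibody (isotype), an anti-Siglec-F antibody (clone E50-2440, 5 µg/mL), recombinant IL-33 (10 ng/mL), or the antibody and IL-33 together (both). Siglec-F is a sialic acid-binding inhibitory receptor of mouse eosinophils, and IL-33 is an alarmin cytokine whose receptor signals through MyD88. The transgene's promoter, the age and sex of the mice, any pooling of animals, and whether the wells with IL-33 alone held isotype antibody are not stated in the labels.

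Inflammasomes are cytosolic complexes in which a sensor that has met its trigger recruits caspase-1, directly or through the adaptor ASC. Active caspase-1 matures interleukin-1 beta and interleukin-18 and cleaves gasdermin D, whose fragment forms pores in the plasma membrane. In the non-canonical branch caspase-11, the product of mouse Casp4, binds bacterial lipopolysaccharide in the cytosol and cleaves gasdermin D itself. In macrophages several of these genes are induced by NF-κB in a priming step that precedes assembly. The libraries report RNA only, not protein, cleavage or complex formation.

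The series covers 12 libraries with total counts from 11686603 to 17137988. The combined group's libraries 2 and 3 differed from the rest, with 15555 and 29990 genes detected where the rest had 19138 to 24485. The share of counts from ribosomal protein genes was 3.22% and 3.68% there and 1.69% to 2.59% in the rest. Each member's difference from isotype with both stimuli, and each call that was lost, is therefore also given without them. All 10 eosinophil markers were detected in every library, with a summed level from 4586 to 14010 CPM, which are counts scaled by library size and TMM factor. In bulk RNA, fewer cells of a type and less RNA per cell cannot be told apart. A gene was said to have risen or fallen where edgeR's quasi-likelihood test gave a Benjamini-Hochberg adjusted p under 0.05 over all 14547 genes. Whether the libraries of 2 groups overlapped is given as a description and was not counted as a change.

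Casp4 and Casp1 are neighbours on mouse chromosome 9, on the same strand. Casp4 rose with IL-33 and no Casp1 change was detected, but the difference between the pair was not tested. Their upstream sequences are shown side by side as a description. Each is the 250 bases before the RefSeq transcript start (GRCm38.p6), Casp4 at chr9:5308599-5308848 and Casp1 at chr9:5298267-5298516, both on the plus strand. Capitals mark 2 overlapping matches to the κB consensus, the binding motif of NF-κB, from 93 to 83 bases before the Casp4 start.
Casp4: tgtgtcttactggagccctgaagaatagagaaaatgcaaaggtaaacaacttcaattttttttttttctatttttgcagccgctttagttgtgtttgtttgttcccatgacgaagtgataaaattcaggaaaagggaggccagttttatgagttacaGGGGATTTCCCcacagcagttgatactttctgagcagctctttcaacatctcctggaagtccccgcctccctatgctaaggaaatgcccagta
Casp1: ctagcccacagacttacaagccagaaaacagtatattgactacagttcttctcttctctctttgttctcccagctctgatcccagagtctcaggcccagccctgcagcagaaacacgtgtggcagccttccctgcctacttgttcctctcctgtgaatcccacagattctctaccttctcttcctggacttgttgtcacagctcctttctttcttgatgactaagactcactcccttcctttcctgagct
The Casp1 window held no match to this consensus on either strand. Among 32851 RefSeq promoter windows of this length, 3.9% held at least 1 match. A looser form, GGG and CC with any 5 bases between them, which includes every match to the consensus, was found in 45.8% of windows, with 5 matches in the Casp4 window and 1 in the Casp1 window (GGCCCAGCCC, from 158 to 149 bases before the start). Of the other members matched, Nlrp3 had 1 match, GGGAACCCCC, from 186 to 177 bases before the first of its annotated starts, and Nlrc4, Aim2 and Pycard had none. Neither an IRF pair, GAAA followed after 2 bases by GAAA (2.98% of windows), nor the GAS element TTCNNNGAA (7.02%) was found on either strand in the windows of these genes. The other RefSeq start of Casp4 lies just downstream and its window holds the same κB matches. The motifs were chosen with these sequences in view, so the shares over all windows are no test of the matches. A match is a description of letters, and binding was not measured.

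Casp4 (ENSMUSG00000033538, mm10 chromosome 9, 5308828 to 5336783, plus strand), which encodes the lipopolysaccharide receptor caspase-11, was the member that rose with IL-33. Its level in isotype libraries 1, 2 and 3 was 4.63, 3.91 and 3.76 CPM. With IL-33 it was 13.5, 20.4 and 9.43 CPM, and with both stimuli 18.6, 17.5 and 21.9 CPM. With the antibody alone it was 4.22, 4.66 and 4.00 CPM. Every library that received IL-33 lay above every library that did not, and the antibody libraries overlapped the isotype libraries.

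Mean Casp4 was 4.10 ± 0.466 CPM in isotype and 14.4 ± 5.54 CPM with IL-33 (SD, n = 3). The rise was 3.50-fold, or 1.81 on the log2 scale (95% interval 1.24 to 2.38), with an adjusted p of 0.00221 by edgeR. With both stimuli it reached 19.4 ± 2.30 CPM (SD, n = 3). That was 4.70-fold above isotype, a log2 fold change of 2.23 (1.66 to 2.81) with an adjusted p of 0.000308. Against the antibody alone (4.29 ± 0.333 CPM) both stimuli gave a 4.51-fold higher level, a log2 fold change of 2.17 (1.60 to 2.75) with an adjusted p of 0.000762. These comparisons share libraries and are not independent of each other. The antibody alone moved Casp4 by a log2 fold change of 0.06 (-0.52 to 0.64), which was not detectable against the spread between libraries. Both stimuli exceeded IL-33 alone by 0.42 (-0.11 to 0.96), adjusted p 0.387, so an added effect of the antibody was not detected and one of up to 0.96 lies within the interval. With combined library 1 alone that difference was 0.41 (0.999).

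The 3 Casp4 calls held in each alternative fit and with each library left out in turn. IL-33 library 2 held the highest Casp4 level of its group and also the highest summed level of T cell and ILC2 markers, 123 CPM against 30.6 to 62.2 elsewhere. Without that library the log2 fold change was 1.51 and the adjusted p 0.00766. When combined libraries 2 and 3 were left out, both stimuli gave 2.23 against isotype (adjusted p 0.00227) and 2.17 against the antibody (adjusted p 0.00577). That fit assumes that the lone remaining library varies like the other groups.

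Some markers of monocytes and macrophages were higher with IL-33, and the sum over their list also lay above isotype with the antibody alone. Their summed level over 14 markers was 1650 to 1906 CPM in isotype, 2082 to 2429 with the antibody, 2588 to 3551 with IL-33 and 3297 to 4234 with both. Of the 13 markers tested, 3 rose with IL-33: Adgre1 (log2 fold change 0.79), Csf1r (0.96) and Cd14 (2.80), which encode F4/80, the CSF1 receptor and a co-receptor for lipopolysaccharide. With both stimuli the same 3 rose against isotype and Ccr2 fell. Adgre1 and Csf1r made up 86.7% to 95.4% of the sum. The other 12 markers summed to 142 to 253 CPM in isotype, 145 to 262 with the antibody, 138 to 323 with IL-33 and 153 to 511 with both, ranges that overlap. C1qa, C1qb and Cx3cr1 averaged 0.996 to 1.54 CPM over all libraries, and Marco was at 0 in 7 of 12 libraries. No gene of the other marker lists (T cells and ILC2, B and plasma cells, dendritic cells, neutrophils, basophils and mast cells, erythroid cells) was called in any comparison. Neutrophil markers summed to 478 to 2230 CPM, B and plasma cell markers to 630 to 1321 and dendritic cell markers to 556 to 943. Basophil and mast cell markers summed to 145 to 250 CPM, T cell and ILC2 markers to 30.6 to 123 and erythroid markers to 5.88 to 30.2. The part of any of these cells in the Casp4 result, or in the levels of the other members, was not tested.

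**Figure D1:**
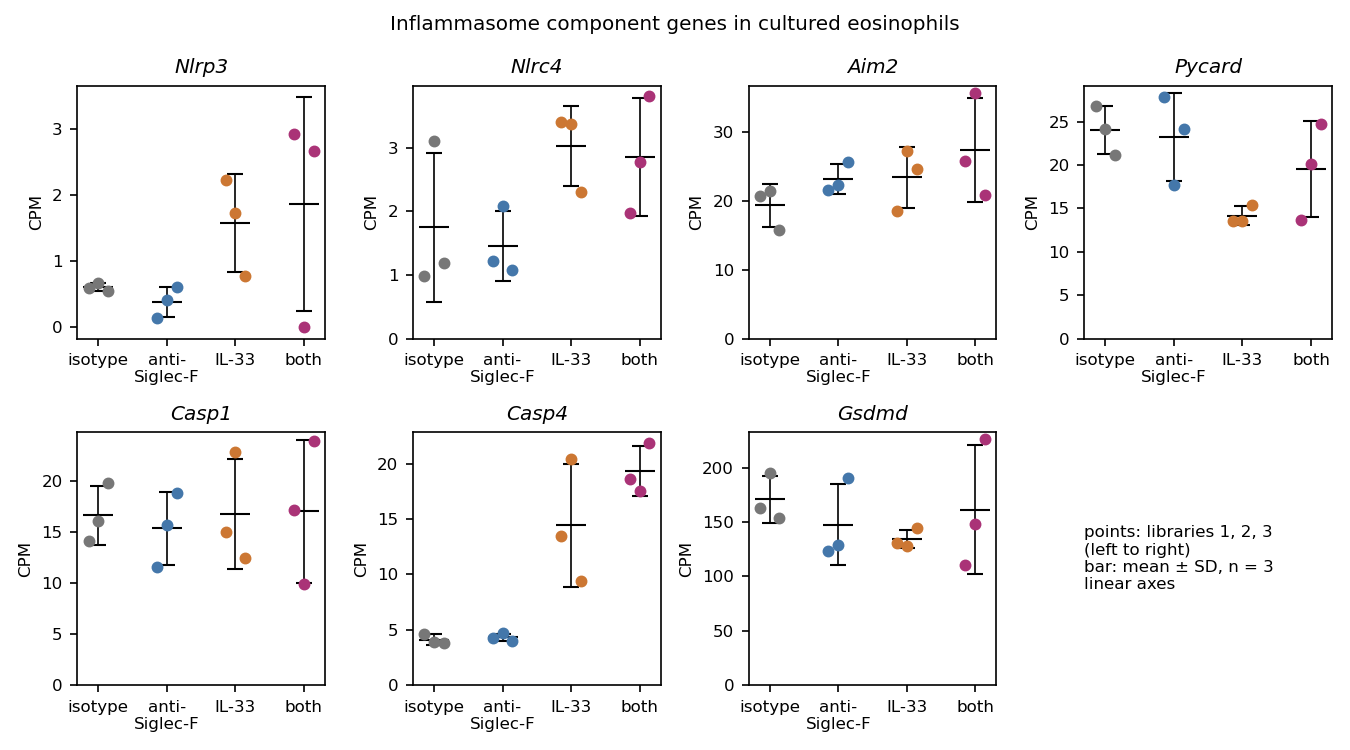
Levels of the 7 genes in CPM (linear axes) in each library, with points for libraries 1 to 3 from left to right and bars for the mean and SD of 3 libraries per group. Casp4 is the panel in which all 6 libraries with IL-33, at 9.43 to 21.9 CPM, lie above all 6 without it, at 3.76 to 4.66 CPM.

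Casp1 (ENSMUSG00000025888, chromosome 9, 5298517 to 5307265, plus strand), which encodes the protease at the centre of the canonical inflammasome, showed no detectable change. It stood at 14.1, 16.1 and 19.8 CPM in isotype and at 11.6, 15.7 and 18.8 CPM with the antibody. With IL-33 it was 15.0, 22.9 and 12.5 CPM, and with both stimuli 17.2, 9.93 and 24.0 CPM. All 4 groups overlapped, and the libraries within the combined group spread more widely than the group means. The log2 fold change was 0.01 (-0.66 to 0.68) for IL-33 and 0.04 (-0.63 to 0.70) for both stimuli against isotype. With combined library 1 alone the latter was 0.09 (adjusted p 0.936). A Casp1 change of the size seen for Casp4 lies outside these intervals, while smaller ones do not.

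The pair can be compared within each library, which removes the scaling. For each Casp1 read there were 0.329, 0.243 and 0.190 Casp4 reads in isotype and 0.364, 0.296 and 0.213 with the antibody. With IL-33 there were 0.904, 0.890 and 0.754, and with both stimuli 1.09, 1.76 and 0.912. The lowest ratio with IL-33 was thus above the highest without it. The mean ratio was 0.254 ± 0.0701 in isotype, 0.849 ± 0.0827 with IL-33 and 1.25 ± 0.450 with both (SD, n = 3). The value of 1.76 belongs to combined library 2, where Casp1 was at its lowest. These ratios are a description, chosen with the Casp4 values known, and were not tested.

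**Figure D2:**
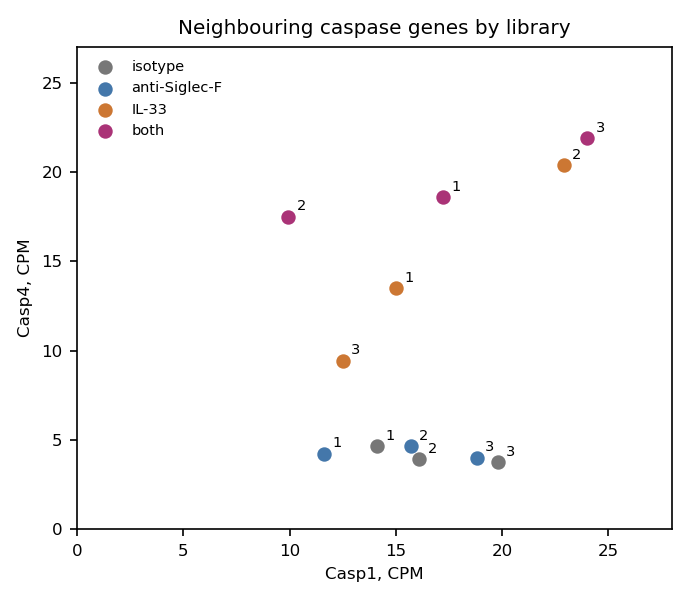
Casp4 against Casp1 in CPM on linear axes, 1 point per library, numbered by library and coloured by group. Libraries without IL-33 lie along the bottom at 3.76 to 4.66 CPM of Casp4 and 11.6 to 19.8 CPM of Casp1. Libraries that received IL-33 lie at 9.43 to 21.9 CPM of Casp4 over a wider Casp1 range, 9.93 to 24.0 CPM.

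Among the sensors, Nlrp3 was scarce and no change passed the test. Nlrp3 (ENSMUSG00000032691, chromosome 11, 59541568 to 59566956, plus strand) encodes the sensor of potassium efflux and other cell disturbances. In isotype 9, 9 and 7 reads gave 0.587, 0.665 and 0.549 CPM, and with the antibody 2, 5 and 9 reads gave 0.143, 0.402 and 0.601 CPM. With IL-33, 34, 22 and 11 reads gave 2.22, 1.73 and 0.768 CPM. With both stimuli, 40, 0 and 39 reads gave 2.92, 0.00 and 2.66 CPM. A count of 0 in combined library 2 allows up to 0.252 CPM (3 counts, covering counting error only). The IL-33 libraries lay above all isotype libraries, the lowest by a small margin, whereas the combined group held the highest value and the only 0.

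The fitted Nlrp3 difference was 1.38 on the log2 scale for IL-33 against isotype (95% interval -0.62 to 3.38, adjusted p 0.625 by edgeR). It was 1.63 (-0.37 to 3.62, adjusted p 0.284) for both stimuli against isotype and 2.26 (0.18 to 4.35, adjusted p 0.182) against the antibody. Combined library 2 decided the last 2 of these. Without it they were 2.19 (adjusted p 0.0317) and 2.83 (adjusted p 0.0229), and both passed the threshold. With libraries 2 and 3 left out they were 2.32 (0.0794) and 2.95 (0.0633). In limma voom with quality weights the difference for both stimuli against isotype was -0.43 (0.851).

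Nlrc4 (ENSMUSG00000039193, chromosome 17, 74425438 to 74459142, minus strand) encodes the partner of the NAIP receptors for flagellin and bacterial secretion systems. It was at 0.979, 3.10 and 1.18 CPM in isotype, 1.22, 2.09 and 1.07 with the antibody, 3.40, 3.38 and 2.30 with IL-33, and 1.97, 2.78 and 3.81 with both. Isotype library 2 stood near the IL-33 libraries, so the groups overlapped. The log2 difference was 0.79 (-0.25 to 1.83, adjusted p 0.559) for IL-33 and 0.71 (-0.34 to 1.75, adjusted p 0.382) for both stimuli against isotype. Without combined libraries 2 and 3 the latter was 0.23 (0.919). With limma voom and quality weights the IL-33 value was 1.27 with an adjusted p of 0.0215. Leaving out isotype library 2 gave 1.51 with an adjusted p of 0.246 by edgeR. A pseudogene, CT033749.1, lies within Nlrc4 on the same strand and had 42 counts in all libraries together.

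Aim2 (ENSMUSG00000037860, chromosome 1, 173350879 to 173466040, plus strand), which encodes the sensor of cytosolic double-stranded DNA, was the best expressed of the 3 sensors. Its levels were 20.7, 21.5 and 15.8 CPM in isotype, 21.6, 22.3 and 25.7 with the antibody, 18.5, 27.2 and 24.6 with IL-33, and 25.8, 35.7 and 20.8 with both. The antibody libraries lay just above the isotype libraries, and the other groups overlapped isotype. The log2 difference was 0.26 (-0.21 to 0.73) for the antibody, 0.28 (-0.19 to 0.75) for IL-33 and 0.50 (0.03 to 0.97, adjusted p 0.163) for both stimuli against isotype. With combined library 1 alone the last of these was 0.47 (0.344). None passed the threshold in any fit. Cadm3 overlaps the gene on the opposite strand and had 39 counts over 12 libraries, and the strand setting of the counting is not given.

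Pycard (ENSMUSG00000030793, chromosome 7, 127989708 to 127993867, minus strand) encodes ASC, the adaptor that joins NLRP3 and AIM2 to caspase-1. Its level was 26.8, 24.1 and 21.2 CPM in isotype and 13.6, 13.5 and 15.4 CPM with IL-33. With the antibody it was 27.8, 17.7 and 24.2 CPM, and with both stimuli 13.7, 20.1 and 24.7 CPM. All IL-33 libraries lay below all isotype and antibody libraries, and the combined libraries, from 13.7 to 24.7 CPM, overlapped every other group. The log2 difference for IL-33 against isotype was -0.76 (-1.25 to -0.28), 1.70-fold lower, with an adjusted p of 0.110 by edgeR. It did not pass the threshold.

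Whether Pycard was called depended on the fit. It was called with DESeq2 (-0.74, adjusted p 0.0370), with limma voom and quality weights (-0.72, 0.0155), with only the compared groups in the fit (-0.74, 0.0352) and without combined libraries 2 and 3 (-0.75, 0.0388). With the replicate number as a block the adjusted p was 0.117 over all groups and 0.0200 over the compared groups alone. With each library left out in turn it was not called, with adjusted p from 0.151 to 0.374. With both stimuli the difference from isotype was -0.30 (-0.79 to 0.18, adjusted p 0.421), and with library 1 alone of the combined group it was -0.76 (0.144). Gm45205 overlaps Pycard on the opposite strand and had 28 counts in 12 libraries.

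Gsdmd (ENSMUSG00000022575, chromosome 15, 75862327 to 75867408, plus strand), the gene of the pore-forming substrate of both caspases, was by far the most abundant member. Isotype libraries held 163, 195 and 154 CPM and antibody libraries 123, 129 and 190 CPM. IL-33 libraries held 131, 128 and 144 CPM, and combined libraries 110, 148 and 226 CPM. The IL-33 libraries lay below the isotype libraries without overlap, and the combined group spanned the whole range. The log2 difference was -0.35 (-0.86 to 0.16, adjusted p 0.631) for IL-33 and -0.08 (-0.59 to 0.43, adjusted p 0.863) for both stimuli against isotype. Without libraries 2 and 3 the latter was -0.58 (0.244).

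Per kilobase of the deposited gene length, the order of mean levels in isotype was Gsdmd (71.8 CPM per kb), Casp1 (11.1), Pycard (6.32), Aim2 (5.52), Casp4 (1.11), Nlrc4 (0.370) and Nlrp3 (0.148). Pycard and Aim2 overlapped between libraries, and the other neighbours in this order did not. Gsdmd ranked at percentile 95.5 of the 14547 tested genes on this scale in isotype, Casp1 at 72.6, Casp4 at 27.0 and Nlrp3 at 3.55. With IL-33 Casp4 stood at 3.89 ± 1.49 CPM per kb beside Pycard at 3.73 ± 0.291 (SD, n = 3), neighbours that did not differ beyond their spread. The length matters for Casp4, for which the table gives 3710 bases from 7 annotated transcripts while the principal transcript has 1435. On principal lengths, Casp4 was at 2.86 CPM per kb in isotype and 13.5 with both stimuli, and Casp1 at 11.2 and 11.4. On that scale Aim2 (6.8) stood above Pycard (6.32) in isotype.

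Counted together, 1 of 7 members was called for IL-33 against isotype, where 2.21% of all genes tested were called. The members' median log2 difference was 0.28, against -0.01 over all genes. For both stimuli against isotype 1 of 7 was called beside 9.88% of all genes, with a median of 0.50 against -0.05. For both stimuli against the antibody 1 of 7 was called beside 4.42%, with a median of 0.24 against -0.04. The called member was Casp4 each time, and these comparisons share libraries. With so few members a count of 1 says little about the group.

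The antibody moved no member detectably. Against isotype edgeR called 0 of 7 members and 0.00% of all genes, with 370 genes and 0 members at an unadjusted p under 0.05, and DESeq2 and limma voom called 0 members. For both stimuli against IL-33, edgeR called 0 of 7 members and 0.00% of all genes, with 2526 genes and 0 members at an unadjusted p under 0.05, and the other tools called 0 members. The interaction, which is the antibody's effect with IL-33 minus its effect without it, was called for 0 of 7 members and 0.00% of all genes by edgeR. At an unadjusted p under 0.05 it held 1150 genes and 0 members, and the other tools again called 0 members. Its intervals were -0.43 to 1.16 for Casp4, -0.17 to 1.20 for Pycard and -1.97 to 3.74 for Nlrp3.

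**Figure D3:**
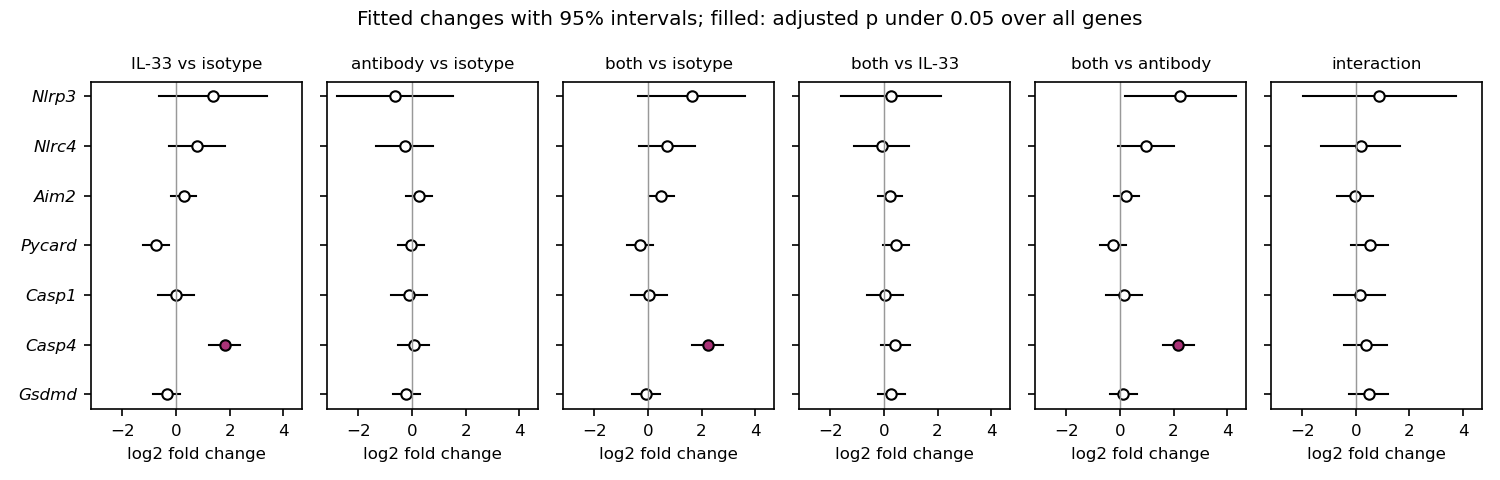
Fitted log2 fold changes (points) with 95% intervals (lines) for the 7 genes in 6 comparisons, on a common linear axis; filled points passed an adjusted p of 0.05 over all genes. Casp4 is filled for IL-33 against isotype (1.81), both against isotype (2.23) and both against the antibody (2.17), and the Nlrp3 intervals are the widest.

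Around the members, 49 of 53 other genes of the pathway present in the table passed the expression filter, and IL-33 against isotype called 7 of them, 4 higher and 3 lower, where 2.21% of all genes were called. Their median was -0.00. The substrates and their antagonists held 3 of the 4 that rose, out of 5 tested. Il1b, the gene of the main caspase-1 substrate, stood at 14.7, 14.3 and 18.8 CPM in isotype and at 1736, 1340 and 397 CPM with IL-33 (log2 fold change 6.18, adjusted p 0.000154). Il1a, whose product acts on the same receptor, was at 3.52, 3.62 and 5.80 CPM in isotype and 169, 162 and 34.9 CPM with IL-33 (4.82, adjusted p 0.000766). IL-33 library 3 was the lowest of its group for both, as it was for Casp4 and Nlrp3, yet it remained above every isotype library.

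Il1rn, which encodes the interleukin-1 receptor antagonist, rose from 1175 ± 208 to 2605 ± 700 CPM with IL-33 (SD, n = 3; log2 fold change 1.15, adjusted p 0.0206 by edgeR). It lost this call when library 1 or 2 of either group was left out, with log2 values of 1.03 to 1.15 and adjusted p from 0.0761 to 0.115. Il18, the gene of the other cytokine that caspase-1 matures, did not pass the expression filter and lay between 0.00 and 0.715 CPM in all libraries. Il1r2, a decoy receptor, and Il18bp, which binds interleukin-18, gave log2 differences of -0.15 and -0.09.

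The fourth gene that rose with IL-33 was Tnfaip3, the gene of the NF-κB feedback inhibitor A20, which went from 288, 245 and 275 to 898, 945 and 642 CPM (1.62, adjusted p 0.000766). Nlrp12, which encodes an NLR protein described as a negative regulator of inflammatory signalling, fell from 108 ± 13.2 to 53.0 ± 13.0 CPM (SD, n = 3; -1.03, adjusted p 0.0234). Serpinb6a, an intracellular protease inhibitor, fell from 16.6 ± 1.23 to 7.89 ± 1.20 CPM (-1.07, adjusted p 0.0277). Both decreases rested on the full set of libraries. Serpinb6a lost the call without any 1 of the 6 libraries, at -1.18 to -0.92 (adjusted p 0.0717 to 0.145). Nlrp12 lost it without any 1 library other than IL-33 library 3, at -1.14 to -0.82 (0.0610 to 0.131).

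None of the 14 genes of sensor licensing and assembly, such as Nek7, Txnip, P2rx7 and Gbp2, was called with IL-33 by edgeR, with 1 at an unadjusted p under 0.05. None of the 6 transcriptional regulators was called either, with 3 at an unadjusted p under 0.05. Of all 14547 genes tested, 1980 were at an unadjusted p under 0.05 by edgeR in this comparison. Irf1 and Irf2, interferon regulatory factors, gave log2 differences of -0.19 and -0.06. Nfkb1 and Rela, subunits of NF-κB, gave 0.55 (adjusted p 0.198) and 0.34 (0.276).

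With both stimuli against isotype, 10 of the 49 were called, 8 higher and 2 lower, with a median of -0.05, where 9.88% of all genes were called. Il1b reached 2081, 856 and 2740 CPM (log2 fold change 6.89), Il1a 211, 85.5 and 228 CPM (5.35), Il1rn 3544, 3924 and 4135 CPM (1.72), and Tnfaip3 943, 578 and 613 CPM (1.40). Nlrp12 (-0.93) and Serpinb6a (-1.27) were lower. Those 6 were also among the 7 called with IL-33 alone. Combined library 2, in which no Nlrp3 read was counted, also had the lowest Il1b, Il1a and Tnfaip3 of its group. It was the lowest for Casp4 too, at 17.5 CPM beside 18.6 and 21.9 CPM.

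The remaining 4 were called with both stimuli and not with IL-33 alone, although edgeR called none of them between the combined group and IL-33 alone. Ninj1, whose product drives membrane rupture after gasdermin pores have formed, went from 111, 158 and 146 to 306, 369 and 580 CPM (1.60, adjusted p 0.00467), with 272, 338 and 156 CPM under IL-33 alone. Gsdme, another gasdermin gene, went from 42.9, 53.3 and 50.2 to 66.8, 83.3 and 83.8 CPM (0.68, adjusted p 0.0134). Gsdme was at 68.4, 71.8 and 70.1 CPM with the antibody alone and at 60.5, 47.2 and 50.0 CPM with IL-33 alone. Mefv, the gene of the pyrin sensor, went from 5.30 ± 0.190 to 14.3 ± 7.17 CPM (SD, n = 3; 1.43, adjusted p 0.0350), and Nfkb1 from 419 ± 25.8 to 684 ± 177 CPM (0.71, adjusted p 0.0380).

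Several of these calls were lost when libraries were left out or the fit was changed. Without combined libraries 2 and 3, Ninj1 (1.20, adjusted p 0.0659), Gsdme (0.51, 0.181) and Nlrp12 (-0.54, 0.322) were not called. Gsdme also lost its call without isotype library 1 (0.61, 0.0741). Mefv and Nfkb1 lost theirs without any 1 of the 6 libraries other than combined library 2, at 1.08 to 1.47 (0.0752 to 0.122) and 0.50 to 0.78 (0.0757 to 0.130). Both were also lost in limma voom with quality weights (1.13, 0.0988 and 0.60, 0.0640) and with only the compared groups in the fit (1.47, 0.0637 and 0.75, 0.0778). Nlrp12 lost it without isotype library 1 or 3 or combined library 3, at -0.92 to -0.76 (0.0553 to 0.0886), and with only the compared groups (-0.89, 0.0508).

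Both stimuli against the antibody alone called 6 of the 49, beside 4.42% of all genes, with Il1b (5.84), Il1a (3.61), Ninj1 (1.27), Tnfaip3 (1.10) and Il1rn (1.06) higher and Nlrp12 (-0.86) lower. Il1b and Il1a kept the call with each library left out, and the other 4 lost it without at least 1 library. Those values ran from 0.95 to 1.48 for Ninj1 (adjusted p 0.0510 to 0.138; without any antibody library or combined library 3) and from 1.09 to 1.13 for Tnfaip3 (0.0531 to 0.0562; without any antibody library). They ran from 0.96 to 1.01 for Il1rn (0.0755 to 0.122; without antibody library 1 or 2 or combined library 3). They ran from -0.92 to -0.69 for Nlrp12 (0.0860 to 0.133; without any 1 library except combined library 1). Without combined libraries 2 and 3, Ninj1 (0.87, adjusted p 0.328), Il1rn (0.99, 0.208) and Nlrp12 (-0.47, 0.582) were not called, and Nlrp12 was not called with only the compared groups either (-0.83, 0.0971).

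The antibody alone against isotype called 0 of the 49 by edgeR, DESeq2 and limma voom, with 6 at an unadjusted p under 0.05. Those 6 were Gsdme (0.52), Il1a (1.73), Il1b (1.05), Il1rn (0.65), Il1r2 (1.20) and Serpinb6a (-0.60), each with an adjusted p of 1.00. Because the 6 were picked by p-value in this comparison, the separation of their libraries adds no support. For the first 5 the 3 antibody libraries lay above the 3 isotype libraries, and for Serpinb6a they lay below. Il1a, for example, was at 11.4, 8.99 and 22.4 CPM with the antibody and Il1b at 25.7, 27.1 and 46.5 CPM, far below the levels with IL-33. For both stimuli against IL-33 and for the interaction, edgeR called 0 of the 49, with 8 and 2 at an unadjusted p under 0.05. DESeq2 called 1 and 0, and limma voom 0 in both.

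**Figure D4:**
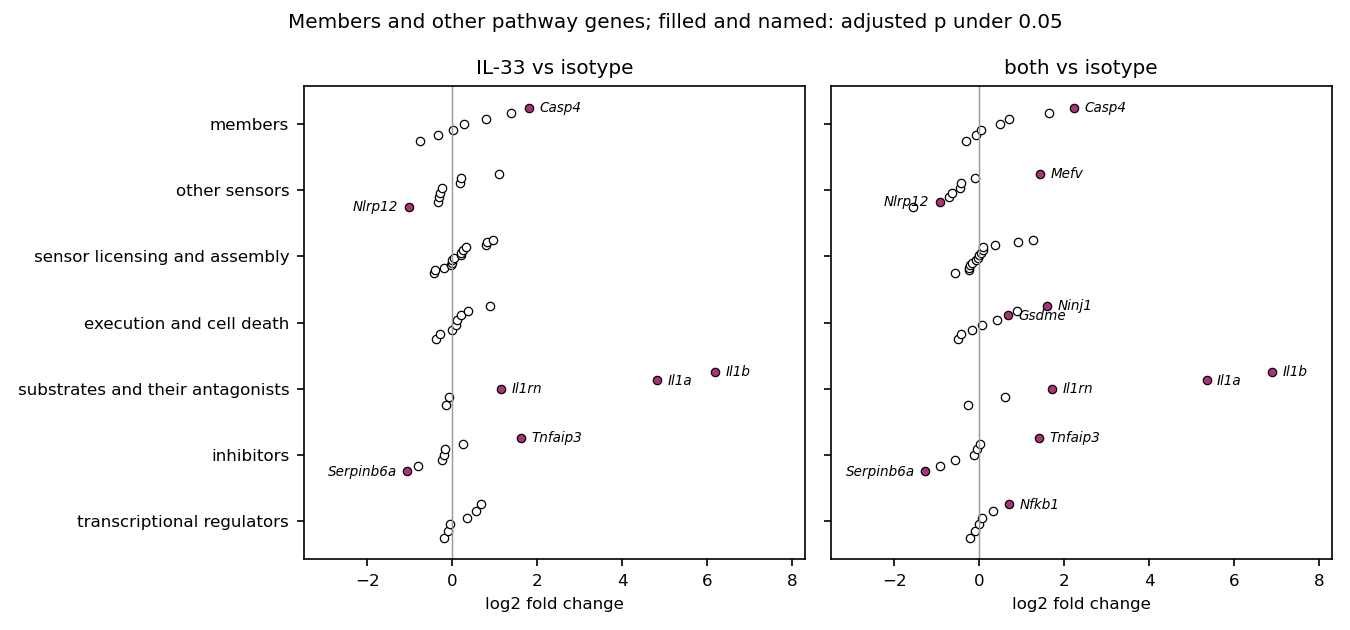
Log2 fold changes of the 7 members (top row) and of the other pathway genes by role (1 gene is not shown), for IL-33 and for both stimuli against isotype; filled, named points passed an adjusted p of 0.05 over all genes, and height within a row only separates points. Il1b (6.18 and 6.89) and Il1a (4.82 and 5.35) lie far to the right of the members, of which only Casp4 is filled.

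The genes whose log2 CPM most resembled each member were found over 12 libraries among genes averaging 5 CPM or more. For Casp4 they were Dgat2, Nfkbia and Ceacam18, each with Pearson's r of 0.98. Nfkbia encodes the NF-κB inhibitor IκBα, and Dgat2 an enzyme of triglyceride synthesis. For Nlrp3 they were Rhbdf2, Wsb1 and Ccnl1 (0.94 each). For Pycard they were S100a10 (0.96), Ldhc (0.95) and Nt5c3 (0.94), and for Casp1 Ewsr1 (0.95), Ufd1 (0.90) and Vps16 (0.88). For Gsdmd they were Rasgrp4 (0.94), Dok3 (0.94) and Slc25a22 (0.93), for Nlrc4 Zfp821 (0.92), Wdr46 (0.91) and Snx8 (0.88), and for Aim2 Dnajc2 (0.88), Dis3 (0.86) and Iba57 (0.84). No gene was shared between these lists. The libraries fall into treatment groups and share their scaling, so these values are a description of likeness only.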

How the data were processed

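RNA sequencing libraries of 12 eosinophil cultures were analysed. The authors deposited raw counts per gene with gene lengths. Reads were processed with fastp, STAR 2.6.1d, FastQC 0.11.8 and featureCounts 1.5.0-p3 on mm10, and DESeq2 was used, per the submitters' processing notes. The annotation release and strand setting were not stated. The deposited normalized values were not used.

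Counts were fitted in R 4.3.3 with edgeR 4.0.16 (quasi-likelihood, TMM, filterByExpr, 12 libraries in 1 fit, no block), with Benjamini-Hochberg adjustment within each of 6 comparisons. DESeq2 1.42.0 and limma 3.58.1 (voom), other scalings and filters, a replicate block and left-out libraries were alternatives. Only the edgeR fit of IL-33 against isotype was tried on simulated data. No label says that replicates are separate mice or wells, so the p-values speak only of spread between libraries, possibly technical. For IL-33 against isotype, same-numbered libraries deviated together (r = 0.27, 0.29 and 0.19). Pairing by number, read from the data and not from a label, entered only the alternative fits with a replicate block. The main fit ignored it.

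The members and lists were chosen with earlier results of these data known. Named were all members, called pathway genes, and the 3 genes most like each member (no predicted models or pseudogenes). Other genes are given by values. The promoter motifs were chosen with the sequences in view. Of 55 pathway genes listed, Pydc3 and Pydc4 had no row. Some listed genes stay in the counts but are not reported here by name. Promoter windows are RefSeq's (GRCm38.p6), and all members but Gsdmd matched.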

Additional observations from a re-analysis of the deposited data

How the results depend on the processing

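Of 42 member values (7 genes in 6 comparisons), the 3 called ones, all Casp4, kept their call and direction in every alternative, with log2 fold changes from 1.51 to 2.08 for IL-33 against isotype, 2.13 to 2.35 for both against isotype and 2.07 to 2.24 for both against the antibody. Of the 39 others, 35 were never called, 4 were called under at least 1 setting (Pycard, Nlrc4 and Nlrp3, with values above), and 21 changed sign under some setting. For IL-33 against isotype, called members numbered 1, and 2 with DESeq2, with only the compared groups, without combined libraries 2 and 3, and with the replicate block in the compared groups alone; limma voom gave 3. Called pathway genes numbered 7, against 16 with limma voom and 11 with the replicate block in the compared groups alone. The replicate block over all groups gave 1 member and 6 pathway genes there and changed no call of a gene named above. Outside that comparison same-numbered libraries did not all deviate together (correlations from -0.27 to 0.31), and the block kept the counts of 10 and 6 called pathway genes for both stimuli against isotype and against the antibody. Without an expression filter, 3 pathway genes were called for the antibody, 1 for both against IL-33 and 1 for the interaction, each against 0; DESeq2 also gave 1 for both against IL-33. Leaving out 1 library at a time gave 1 to 2 members and 6 to 12 pathway genes for both against isotype, 1 to 2 and 2 to 12 for both against the antibody, 3 to 6 pathway genes for IL-33 against isotype, and 0 to 5 for both against IL-33. Nlrp3 was not tested under the strict filter (at least 1 CPM in 6 libraries). The cause of these shifts was not tested. Nlrp3 and Nlrc4 had at most 56 reads in a library, and whether depth limited their tests was not tested.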
